A study of Mus musculus with 6 samples.

Results

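Type I interferons are cytokines that cells release when they sense foreign or misplaced nucleic acid. They bind the receptor made of Ifnar1 and Ifnar2, which through the kinases Jak1 and Tyk2 activates a complex that includes Stat2 and Irf9 and binds an interferon stimulated response element in front of a set of target genes. The products of these interferon stimulated genes block viral RNA and protein, sense nucleic acid, and dampen or prolong the signal, and in tumours they are read as a mark of interferon acting on malignant and immune cells. Here 39 such genes of the mouse were taken by symbol from a list, by a rule that uses no measured value although earlier results of these data were known when it was made, and 38 of them were found in all 6 matrices, among 31053 genes. Mx2 was not analysed here.

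The tumours were grown in male C57Bl/6 mice aged 6 to 8 weeks by placing 600000 YUMMER1.7 cells under the skin. YUMMER1.7 is a single melanoma line of the mouse that was exposed to ultraviolet light so that it carries more mutations. Exercise mice ran at 12 m per minute for 45 minutes a day over 14 days (libraries 5, 6 and 8), and the other mice were sedentary (libraries 1, 2 and 3). All cells of a dissociated tumour entered a library, with no sort, and RNA molecules were tagged at their 3′ end with unique molecular identifiers (UMIs). The labels do not say how many animals a library holds, and p-values measure the spread between these 6 libraries.

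The 6 libraries held 58351 barcodes and 714448740 UMIs, 97426009 to 131778565 in a library, and 52390 barcodes passed the limits on genes, UMIs and mitochondrial share. Barcodes were assigned to classes by marker genes, which gave 29946 tumour-like, 7366 macrophage and monocyte-like, 3734 T-like, 859 NK-like, 687 neutrophil-like and 234 conventional dendritic-like cells among others, and left 9137 barcodes (17.4%) in no class. A host class needs several of its own markers and at most 1 of Cspg4, Cdh2 and Nes, whereas a tumour-like barcode needs at least 2000 UMIs and host markers below fixed rates, with no tumour marker required, so low host markers in tumour-like cells are in part set by this rule. Levels are given as CPM, UMIs scaled to a library or class total of 1000000. Cspg4 was at 46.7, Cdh2 at 51.6, Nes at 52.4 and Mitf at 9.85 CPM in tumour-like cells, which nearly lacked the genes of pigment cells: over all libraries Sox10 had 3 UMIs, Tyr 5, Mlana 7 and Dct 8. The fibroblast-like class, which needs 5 markers and also a minimum rate of Col1a1, held 84 cells. By number of markers alone, 4910 further barcodes were 1 short. Whether these barcodes reach the Col1a1 rate, and whether any of them are among the tumour-like cells, was not tested. Of the tumour-like cells of a library 14.8% to 22.3% showed none of the 12 tumour markers. Between 19 and 35 barcode sequences were shared by any pair of libraries. A barcode held a median of 5967 UMIs in exercise 5 and 6588 in sedentary 2, and of 10570 to 12513.5 elsewhere. The same libraries had the largest immune share of classed barcodes, 50.1% and 43.6%, the rest having 19.1% to 28.6%.

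The 38 members lie on 14 chromosomes (GRCm38, GENCODE M21), and 17 of them sit in 6 groups of neighbours. The 5 IFIT genes, which bind viral RNA, occupy chr19:34550694-34650009. Oas1a, Oas1g, Oas2 and Oas3, synthetases of the oligoadenylate that switches on an RNase, occupy chr5:120730333-120907521, and their relatives Oasl1 and Oasl2 lie on the same chromosome at chr5:114896936-114937915. Rsad2 and Cmpk2, which act together to make a nucleotide that ends viral RNA chains, are neighbours at chr12:26442746-26479837. Some members share 3′ sequence with a relative, so UMIs could have been lost or moved between them: of the 61-base windows in the last 500 bases of their transcripts, 50.9% of Oas1a and 24.3% of Oas1g occur in the other gene, 12.7% of Ifit3 in Ifit3b, 4.55% of Ifit1bl1 in Ifit1bl2 and 18.4% of Phf11d in its Phf11 relatives. For 9 members another counted gene overlaps the gene body.

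The choice of members used no sequence, so the core of the response element was counted in their promoters. The core GAAANNGAAA, or its other strand TTTCNNTTTC, occurred in the RefSeq promoter window (250 bases before to 50 after the start, GRCm38.p6) of 15 of the 28 members with a window (53.6%), against 1079 of 27025 genes (3.99%). At least 2 matches, overlapping ones counted singly, occurred in 7 members, against 72 genes (0.266%). A match is a description of these letters and not a bound site. The windows below are shown because they belong to members on which the results turn, the first 5 with the core in capitals and Ifi44 without it. Each is 120 bases, read 5′ to 3′ on the strand of the gene: Ifit1 chr19:34640769-34640888 on the plus strand, Ifit3 chr19:34583347-34583466 on the plus strand, Isg15 chr4:156200819-156200938 on the minus strand, Bst2 chr8:71537537-71537656 on the minus strand, Rsad2 chr12:26456453-26456572 on the minus strand and Ifi44 chr3:151749911-151750030 on the minus strand.
Ifit1: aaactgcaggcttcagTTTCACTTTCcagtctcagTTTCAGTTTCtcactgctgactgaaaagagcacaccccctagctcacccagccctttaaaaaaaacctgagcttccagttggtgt
Ifit3: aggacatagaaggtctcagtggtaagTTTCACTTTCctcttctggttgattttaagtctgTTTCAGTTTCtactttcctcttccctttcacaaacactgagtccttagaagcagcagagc
Isg15: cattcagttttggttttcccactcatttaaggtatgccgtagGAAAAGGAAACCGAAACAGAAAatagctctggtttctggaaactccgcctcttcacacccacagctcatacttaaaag
Bst2: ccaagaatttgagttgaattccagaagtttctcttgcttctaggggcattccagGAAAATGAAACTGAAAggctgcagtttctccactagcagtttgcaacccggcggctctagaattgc
Rsad2: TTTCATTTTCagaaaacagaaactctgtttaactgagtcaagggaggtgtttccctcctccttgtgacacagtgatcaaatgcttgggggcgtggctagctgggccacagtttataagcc
Ifi44: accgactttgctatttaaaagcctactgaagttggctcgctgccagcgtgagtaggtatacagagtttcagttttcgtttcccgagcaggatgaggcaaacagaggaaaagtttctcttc

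Isg15 held 3 overlapping matches, Ifit1, Ifit3 and Bst2 held 2 each and Rsad2 held 1. In Ifit1 and Ifit3 both matches read TTTC on the strand of the gene. Ifi44 held no match in its window in these letters.

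Among the classes with at least 20 cells in 5 or more libraries, with T-like cells taken as 1 class, macrophage and monocyte-like and neutrophil-like cells had the highest summed level of the list. The summed level of the 38 members was 6321 ± 1349 CPM in macrophage and monocyte-like cells (SD, n = 6 libraries), 7072 ± 1516 CPM in neutrophil-like cells (n = 5, exercise 6 having too few), 3668 ± 403 CPM in T-like cells, 2940 ± 560 CPM in conventional dendritic-like cells (n = 5), 2227 ± 425 CPM in NK-like cells and 1960 ± 482 CPM in tumour-like cells. Mast and basophil-like cells had 2231 ± 1573 CPM (n = 5, with 21 to 26 cells a library). They had 4764 and 2752 CPM in exercise 6 and 8 and 952, 1342 and 1346 CPM in sedentary libraries, which was not tested. Plasmacytoid dendritic-like cells, the specialised interferon producers of the body, reached 20 cells in sedentary 1 alone, where the sum was 6549 CPM, of which Bst2 made up 2937 and Ifi27l2a 1581 CPM. The mean of log2(CPM + 1) over the members in these cells was 4.81, against 4.67 in tumour-like cells of that library. This order depended on the value added to CPM. With 0.1 in place of 1 the means were 4.16 and 4.53, and with 10 they were 5.68 and 5.31. Ifit3, Oas1a and Cmpk2 were among the members with 0 UMIs in these plasmacytoid cells. The mean of log2(CPM + 1) over the members was higher than in tumour-like cells of the same library by 1.86 ± 0.12 in macrophage and monocyte-like cells (higher in 6 of 6 libraries), 1.75 ± 0.27 in neutrophil-like cells (5 of 5), 0.61 ± 0.22 in T-like cells (6 of 6) and 0.52 ± 0.07 in NK-like cells (6 of 6). By mean CPM, 18 members were highest in neutrophil-like and 14 in macrophage and monocyte-like cells, and tumour-like cells were lowest of 7 classes for 11 members and highest for 1, Ifi44. Such ranks were not counted over all genes, and some leads lie within the SD. Ifi44 had 63.6 ± 20.7 CPM in tumour-like and 58.2 ± 25.9 CPM in NK-like cells. Ifih1 had 97.7 ± 87.1 CPM in neutrophil-like and 97.4 ± 21.9 CPM in macrophage and monocyte-like cells. The lead of mast and basophil-like cells for Ifit1 rests on few cells, at 363 ± 694 CPM (SD, n = 5).

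**Figure D1:**
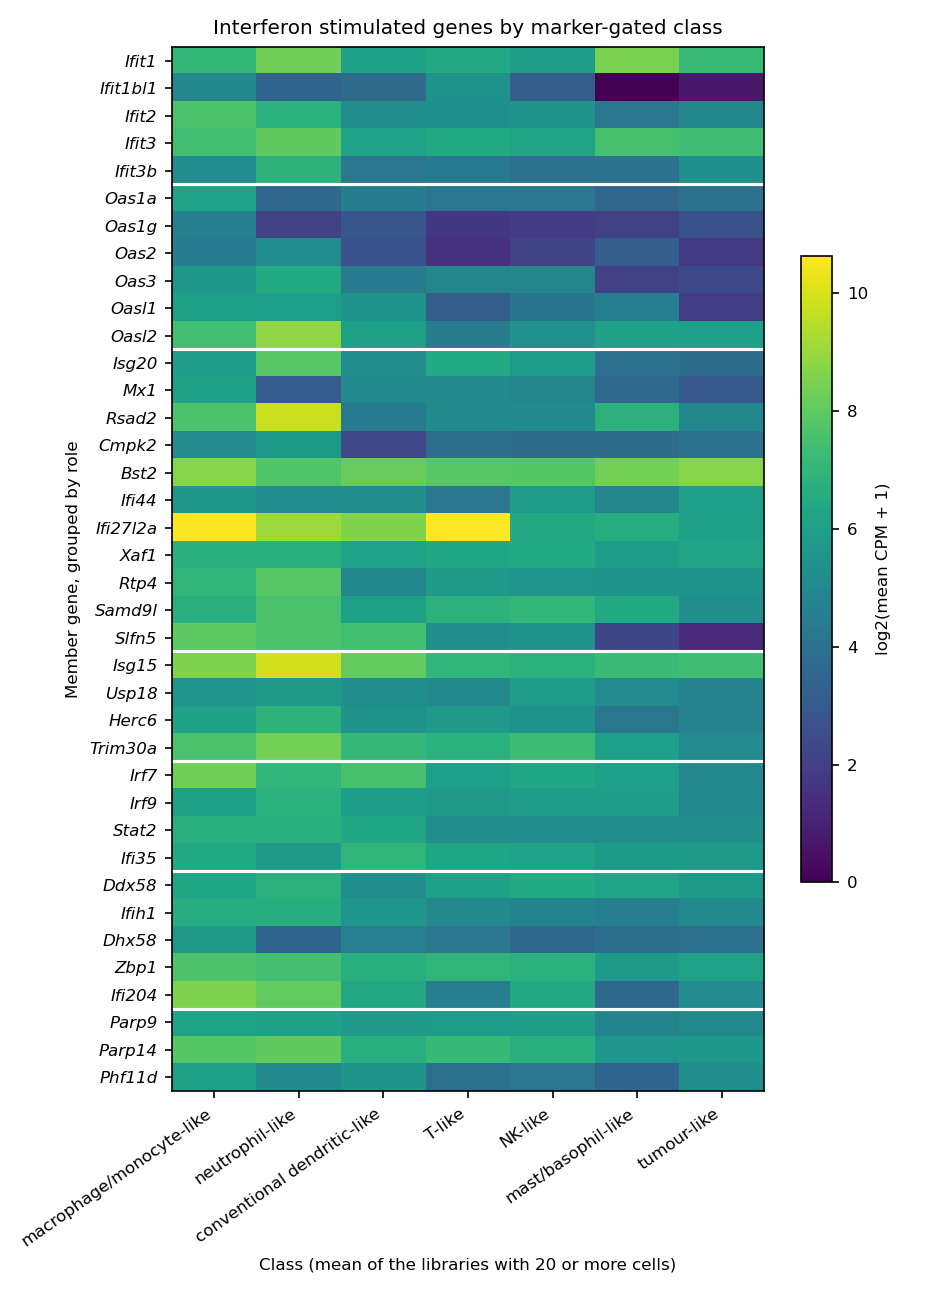
Mean level of each member, as log2(mean CPM + 1) in colour, in 7 marker-gated classes (columns) with the members in rows, white lines separating the groups by role. Macrophage and monocyte-like and neutrophil-like columns are brightest for most members, Ifi27l2a stands out in macrophage and monocyte-like and T-like cells, and Slfn5 and Ifit1bl1 are dark in tumour-like cells at 1.49 and 0.634 CPM.

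**Figure D2:**
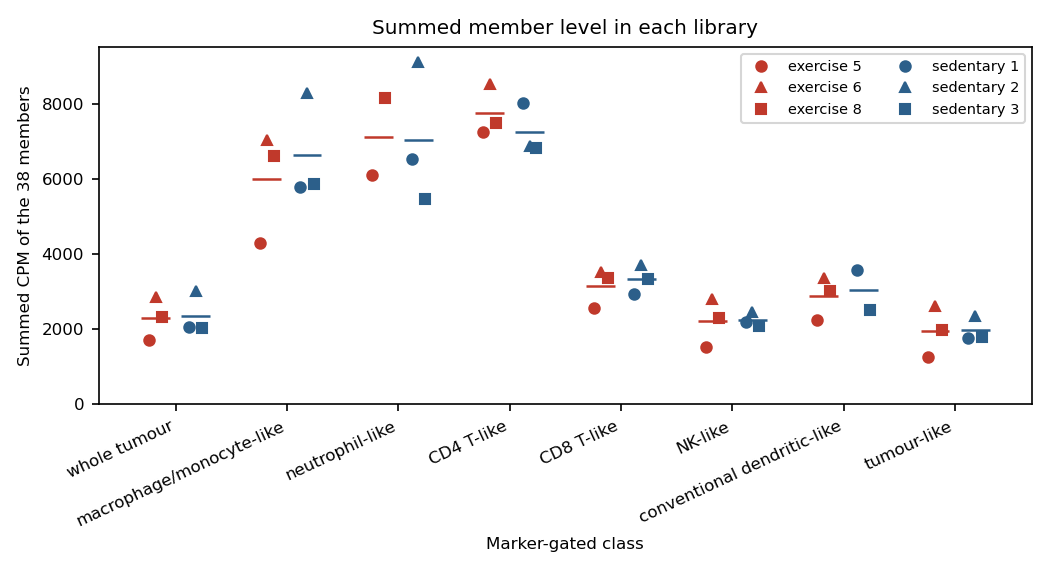
Summed CPM of the 38 members (vertical axis, from 0) in each library by class, exercise libraries in red and sedentary libraries in blue, with lines at the group means. In tumour-like cells the 3 exercise libraries span 1245 to 2610 CPM, both below and above the sedentary libraries at 1767 to 2363 CPM.

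Macrophage and monocyte-like cells were tested against tumour-like cells of the same libraries with the edgeR quasi-likelihood test, Benjamini-Hochberg adjusted over 13732 genes. Of the 38 members 33 were higher and 1 was lower at an adjusted p below 0.05, against 38.2% of all genes higher and 40.8% lower, and the median log2 fold change of the members was 1.60, against -0.043 over all genes tested. The interferon regulator Irf7 had 163, 398 and 371 CPM in exercise and 292, 384 and 274 CPM in sedentary macrophage and monocyte-like cells, against 13.4, 46.9 and 35 CPM in exercise and 28.0, 36.6 and 24.5 CPM in sedentary tumour-like cells. The classes did not overlap, and the fold was 10.9 (log2 3.44 ± 0.08, SE; edgeR adjusted p = 1.535e-12). Slfn5, a Schlafen family protein, differed most, at 257 ± 72.9 CPM against 1.49 CPM in tumour-like cells (log2 7.47 ± 0.14). Ifi27l2a, a small protein of the mitochondrial and nuclear membranes, had 1532 ± 300.4 CPM against 66.5 CPM (25.3-fold), and Ifi204, a DNA sensor, had 380 ± 107 CPM against 34.3 CPM (11.9-fold).

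The members that did not differ in this way form a small group. The tetherin gene Bst2, whose product holds budding virus at the cell surface, had 422 ± 91.9 CPM in macrophage and monocyte-like cells and 417 ± 118 CPM in tumour-like cells (log2 0.08 ± 0.08; edgeR adjusted p = 0.361). Ifit3 had 171 ± 54.6 against 165 ± 51.8 CPM (adjusted p = 0.281), Ifit1 had 131 ± 31.7 against 147 ± 36.4 CPM (adjusted p = 0.324) and Ifit3b had 34.7 ± 14.3 against 39.1 ± 13 CPM (adjusted p = 0.26), all by edgeR. Ifi44, a GTP-binding protein that restrains virus growth, was lower in macrophage and monocyte-like cells, at 50.6 ± 20.4 against 63.6 ± 20.7 CPM (log2 -0.31 ± 0.11; edgeR adjusted p = 0.0175), and this call was lost with the stricter marker gate (adjusted p = 0.103). In contrast the related Ifit2 was higher, at 189 ± 67.3 against 28.9 ± 4.99 CPM (6.56-fold).

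Other groups were higher throughout. All 6 oligoadenylate synthetase members were higher, between 2.84-fold for Oasl2 and 23.3-fold for Oasl1, a relative that holds back translation of Irf7. Of the 5 nucleic acid sensors all were higher, from Ddx58 (RIG-I, 1.49-fold), through Zbp1, Ifih1 (MDA5) and Dhx58 (LGP2), to Ifi204. The ubiquitin-like Isg15, its protease Usp18, the ligase Herc6 and the TRIM protein Trim30a were higher by 2.37-fold, 1.89-fold, 2.80-fold and 5.89-fold. Tumour markers were present in these sums at a low level, which the gate in part sets: Cspg4 had 6.18 CPM in macrophage and monocyte-like and 46.7 CPM in tumour-like cells, while Csf1r had 384 and 0.511 CPM. Their part in the folds was not tested.

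Neutrophil-like cells had the steepest profile for a few effectors. Of 38 members 30 were higher and 1, Bst2, was lower than in tumour-like cells (edgeR, 12748 genes), against 15.3% of all genes higher and 15.2% lower, with a median log2 fold change of 2.09, against -0.30 over all genes. Rsad2, the viperin enzyme, had 540 and 607 CPM in exercise 5 and 8 and 1056, 1481 and 683 CPM in sedentary neutrophil-like cells, against 12.0 to 44.6 CPM in tumour-like cells of the 6 libraries. Its fold was 34.9 (log2 5.13 ± 0.19), that of the exonuclease gene Isg20 was 21.2 and that of Isg15 was 6.94. Isg15 had 818 and 959 CPM in exercise and 965, 1306 and 761 CPM in sedentary neutrophil-like cells. Neutrophil-like cells are shallow, with library medians of 802 to 1187.5 UMIs, and held Cspg4 at 14.0 CPM; the part of either in these folds was not tested.

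T-like cells differed from tumour-like cells in both directions. Of 38 members 21 were higher and 10 lower (edgeR, 13582 genes), against 34.3% of all genes higher and 38.6% lower, and the median log2 fold change was 0.30, against -0.055 over all genes. Higher were Ifi27l2a at 1591 ± 294.7 against 66.5 CPM (24.2-fold) and Isg20 at 89.0 ± 20.8 against 12.5 CPM (6.91-fold). So were Slfn5 at 37.1 ± 14.9 against 1.49 CPM (23.6-fold) and the dynamin-like Mx1 at 33.3 ± 10.1 against 6.65 CPM (5.13-fold). Lower were Ifit1, Ifit3, Ifit3b, Oas1g, Oasl2, Bst2, Ifi44, Isg15, Ifi204 and Phf11d, the last a zinc finger protein. Ifi44 was at 17.8 ± 7.21 against 63.6 CPM (0.266-fold) and Oasl2 at 21.4 ± 6.31 against 62.4 CPM (0.329-fold).

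Within T-like cells, the 324 with CD4 markers were set beside the 2766 with CD8 markers. Their summed member level was 7498 ± 671 CPM, against 3244 ± 419 CPM in CD8 T-like cells, and the ranges over 6 libraries did not overlap. The mean of log2(CPM + 1) over the members did not separate them, at 5.59 ± 0.71 in CD4 and 5.24 ± 0.20 in CD8 T-like cells with ranges that overlapped, and in sedentary 3 it was lower in CD4 cells (4.47 against 5.14). Ifi27l2a made up most of the gap in the sum, with 4486, 4143 and 4418 CPM in exercise and 4014, 3379 and 5259 CPM in sedentary CD4 T-like cells, against 889, 1482 and 1662 CPM in exercise and 1207, 1294 and 1671 CPM in sedentary CD8 T-like cells. Isg20 was at 233 CPM in CD4 and 72.5 CPM in CD8 T-like cells, Isg15 at 270 and 106 CPM, and Bst2 at 341 and 208 CPM.

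Genes upstream of the members were read from lists beside them. Type I ligands were close to absent: in the 610328888 UMIs of tumour-like cells Ifnb1 had 34 UMIs, Ifna13 had 3, Ifna4 had 1, and Ifna1, Ifna2, Ifna5 and Ifna12 had 0, which allows at most 3 UMIs each by counting error. In macrophage and monocyte-like cells Ifnb1 averaged 0.557 CPM, from 18 UMIs. Ifng, the type II ligand, was at 203 CPM in T-like and 45.0 CPM in NK-like cells and at 0.173 CPM in tumour-like cells. The receptor genes were measured everywhere, with Ifnar1 at 79.3 CPM and Ifnar2 at 103 CPM in macrophage and monocyte-like cells, against 22.3 and 24.8 CPM in tumour-like cells. All 8 receptor and proximal signalling genes and all 13 tested nucleic acid sensing genes were called higher in macrophage and monocyte-like cells. In that edgeR comparison with tumour-like cells 38.2% of all 13732 genes tested were called higher.

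In tumour-like cells the 8 members with the highest mean CPM were Bst2, Ifit3, Isg15, Ifit1, Xaf1, Zbp1, Ifi27l2a and Ifi44. Bst2 had 280, 616 and 387 CPM in exercise and 358, 489 and 371 CPM in sedentary libraries. Ifit3 had 75.0, 217 and 177 CPM in exercise and 156, 213 and 155 CPM in sedentary libraries. Isg15 had 98.9, 210 and 163 CPM in exercise and 148, 212 and 145 CPM in sedentary libraries. In all 3 genes exercise 5 was lowest, exercise 6 and sedentary 2 were highest, and the groups overlapped.

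Ifit1 had 81.4, 184 and 163 CPM in exercise and 131, 166 and 154 CPM in sedentary tumour-like cells. Xaf1, an antagonist of a cell death inhibitor, had 65.4, 94.9 and 63.1 CPM in exercise and 61, 88.8 and 62.5 CPM in sedentary libraries. Zbp1, a sensor of left-handed nucleic acid that can start necroptosis, had 66.2, 85.3 and 60.7 CPM in exercise and 50.8, 95.1 and 51.4 CPM in sedentary libraries. For the last pair exercise 5 was not the lowest library. Ifi27l2a had 24.2, 90.6 and 62.8 CPM in exercise and 72.4, 83.7 and 65.4 CPM in sedentary libraries, and Ifi44 had 30.8, 89.6 and 74.4 CPM in exercise and 52.4, 75.2 and 59.4 CPM in sedentary libraries. Both put exercise 5 lowest and exercise 6 highest again.

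This order of libraries ran through most of the list in tumour-like cells and was weaker in T-like cells and the whole tumour. In tumour-like cells exercise 5 was the lowest library for 32 of 38 members, against 20.8% of all genes of at least 1 CPM, and exercise 6 was the highest for 27, against 15.1% of all genes. In macrophage and monocyte-like cells exercise 5 was lowest for 28 members and sedentary 2 highest for 28, against 15.3% and 16.0% of all genes. In NK-like cells exercise 5 also had the lowest sum of the members (1527 CPM) and exercise 6 the highest (2802 CPM). In T-like cells exercise 5 was lowest for 17 members, exercise 8 for 10 and sedentary 3 for 8. The shares of all genes were 12.4%, 17.3% and 21.7%. In the whole tumour exercise 5 was lowest for 18 members, sedentary 3 for 12 and sedentary 1 for 8. There the shares of all genes were 17.8%, 23.6% and 12.4%. Over all kept barcodes exercise 5 and sedentary 2 share a low median depth and a high immune share. They stood at opposite ends of the member levels in macrophage and monocyte-like cells. That median mixes the classes. Among tumour-like cells with 0 IFIT, Oas and Mx1 UMIs of 3000, described below, both libraries were deeper than the others. The medians were 21546 UMIs in exercise 5 and 27274 in sedentary 2, against 16149 to 20997 elsewhere. The part of depth or immune share in this order was not tested.

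Exercise was compared with sedentary libraries, the question of the design, in the whole tumour and in 3 classes, with the edgeR quasi-likelihood test adjusted over all genes tested. No member was called in any of them. In the whole tumour 0 of 38 members were called, against 0% of 15509 genes (413 genes and 0 members at an unadjusted p below 0.05). In tumour-like cells 0 of 38 were called, against 0% of 14461 genes (602 genes and 0 members unadjusted). In macrophage and monocyte-like cells 0 of 38 were called, against 0% of 11297 genes (223 genes and 0 members unadjusted). In T-like cells 0 of the 36 that passed the filter on low counts were called, against 0% of 9817 genes (244 genes and 1 member unadjusted). DESeq2 called 22, 38, 2 and 4 genes in the 4 fits, none of them a member. No member had all exercise libraries above or all below the sedentary ones in any of the 4, against 6.55%, 8.18%, 6.44% and 8.51% of all genes of at least 1 CPM. In whole-tumour sums fewer cells of a type and less RNA per cell cannot be told apart.

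The median log2 fold change of the members was -0.035 in the whole tumour (17 of 38 above 0, against 8166 of 15509 genes) and 0.0038 in tumour-like cells (20 of 38, against 7312 of 14461). It was -0.17 in macrophage and monocyte-like cells (3 of 38 above 0, against 5467 of 11297) and -0.19 in T-like cells (3 of 36, against 5004 of 9817). The members vary together across libraries, so these counts of signs are not independent observations. Without exercise 5 the median was 0.27 in tumour-like cells, with no member called, and without exercise 6 it was -0.23. In macrophage and monocyte-like cells leaving out 1 library gave medians of -0.28 (without sedentary 3) to 0.023 (without sedentary 2), with -0.0079 without exercise 5. In T-like cells they ran from -0.31 (without exercise 6) to -0.05 (without exercise 5), and in the whole tumour from -0.18 (without exercise 6) to 0.21 (without sedentary 2).

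**Figure D3:**
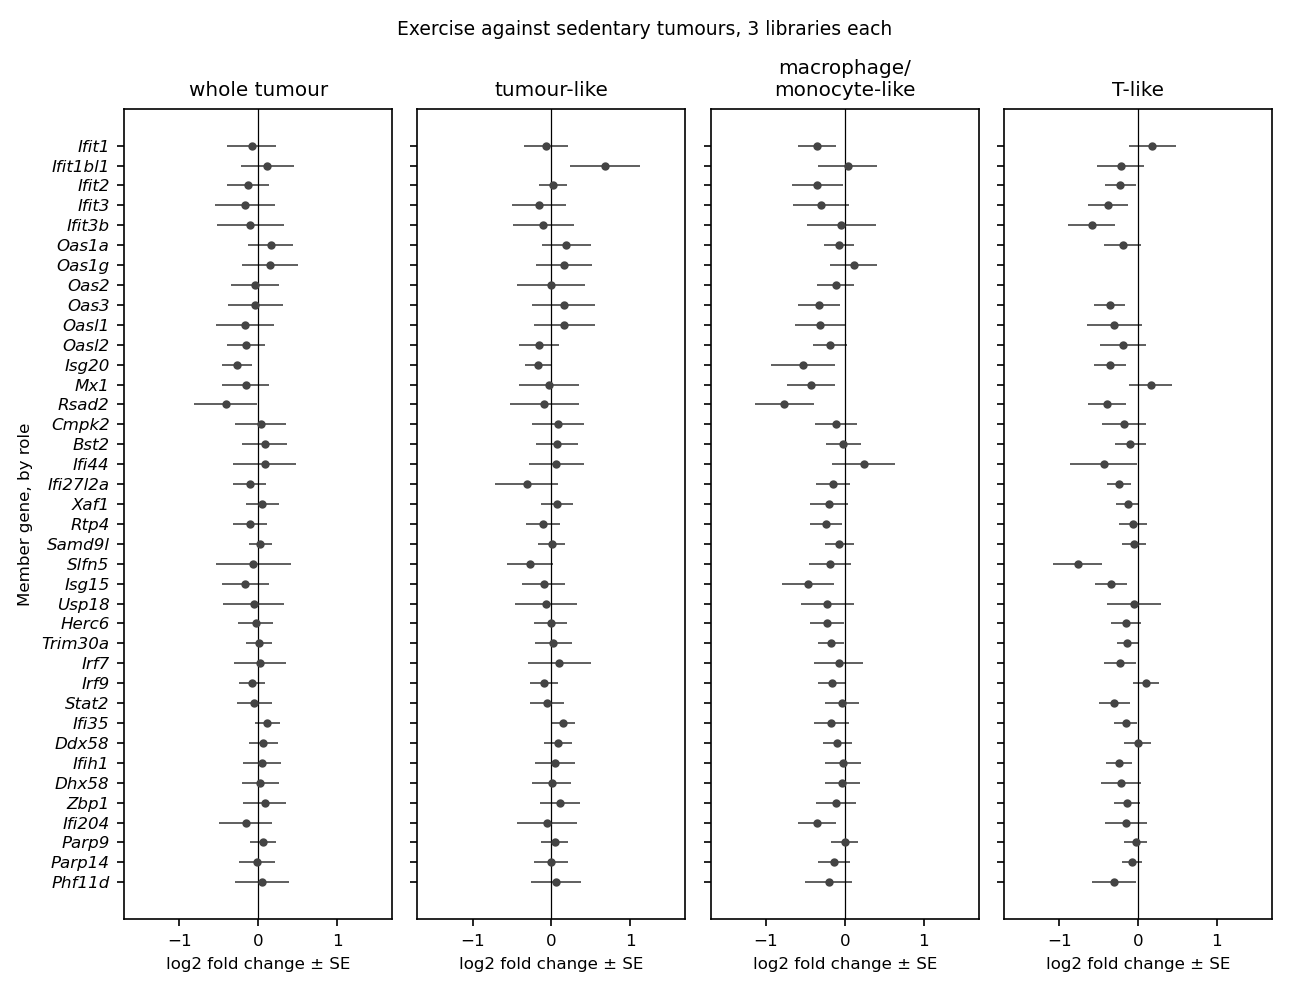
Log2 fold change of exercise against sedentary libraries (horizontal axis, points with SE, edgeR, 3 libraries each) for every member tested, in the whole tumour and in 3 classes. Points scatter around 0 in the whole tumour and in tumour-like cells and lie mostly below 0 in macrophage and monocyte-like cells (35 of 38) and T-like cells (33 of 36), and no member was called.

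The members with the smallest unadjusted p in each direction were these. In macrophage and monocyte-like cells Rsad2 had 92.7, 120 and 235 CPM in exercise and 183, 349 and 203 CPM in sedentary libraries (log2 -0.77 ± 0.37; edgeR unadjusted p = 0.0729, adjusted p = 1.00). Exercise 5 and 6 lay below all sedentary libraries, and exercise 8 lay within their range. The log2 fold change was -1.26 without exercise 8 and -0.39 without sedentary 2. Ifit1 followed, with a log2 fold change of -0.36 ± 0.24, and in the other direction Ifi44 (0.24 ± 0.40) and Oas1g (0.11 ± 0.30). In T-like cells Slfn5 had 28.9, 42.2 and 13.9 CPM in exercise and 45.5, 57.1 and 34.7 CPM in sedentary libraries (log2 -0.77 ± 0.31; edgeR unadjusted p = 0.03, adjusted p = 1.00). Only exercise 6 overlapped the sedentary range, and the log2 fold change was -1.07 without exercise 6 and -0.48 without exercise 8. Without a filter on low counts Slfn5 was called lower by edgeR (adjusted p = 0.0306). Ifit3b came next (log2 -0.59 ± 0.30), then, above 0, Irf9 (0.10 ± 0.17) and Ifit1 (0.18 ± 0.30).

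In tumour-like cells these were Ifit1bl1 (log2 0.68 ± 0.45) and Ifi35, a partner of leucine zipper factors (0.15 ± 0.14), above 0, and Isg20 (-0.17 ± 0.17) and Slfn5 (-0.27 ± 0.30) below 0. Ifit1bl1 was scarce, with 0.420, 0.754 and 1.17 CPM in exercise and 0.373, 0.347 and 0.742 CPM in sedentary libraries, which overlapped. In the whole tumour they were Ifi35 (0.12 ± 0.16) and Oas1a (0.16 ± 0.29) above 0, and Isg20 (-0.27 ± 0.19) and Rsad2 (-0.41 ± 0.40) below 0. The difference of the exercise effect between macrophage and monocyte-like and tumour-like cells was tested as an interaction in edgeR with the library as a block. It called 0 of 38 members, against 0% of 14474 genes (446 genes and 1 member, Ifi35, unadjusted; DESeq2 was not run), with a median of -0.11 over the members.

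Genes of the lists beside the members gave no call either. The share of all genes above 0 was 52.7% in the whole tumour, 50.6% in tumour-like, 48.4% in macrophage and monocyte-like and 51.0% in T-like cells. For the 20 genes listed as tied mainly to interferon gamma, 16 were above 0 in the whole tumour and 13 in tumour-like cells. In macrophage and monocyte-like cells 13 of them were above 0, and in T-like cells 7. Of the nucleic acid sensing genes 11 of 13 tested were above 0 in the whole tumour, 10 of 11 in tumour-like, 5 of 13 in macrophage and monocyte-like and 3 of 9 in T-like cells. Of the 8 receptor and proximal signalling genes 6 were above 0 in the whole tumour, 5 in tumour-like, 4 in macrophage and monocyte-like and 2 in T-like cells. In these lists edgeR called 0 genes in each fit, and the signs of genes that share libraries are not independent.

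Among tumour-like cells of the same library the members were spread far from evenly. With each cell thinned to 3000 UMIs, which left out 57, 69 and 66 exercise and 52, 81 and 98 sedentary cells that were shallower, a cell held a median of 2, 5 and 3 member UMIs in exercise and 3, 5 and 3 in sedentary libraries, while the highest cell held 98, 149 and 259 in exercise and 110, 140 and 154 in sedentary libraries. The tenth of cells with the most held 44.7 ± 3.96% of all member UMIs (SD, n = 6 libraries; 39.6% to 49.8%). The variance was 15.3 ± 4.41 times the mean (8.67 to 21.7), where counting alone gives a ratio of 1. At least 10 member UMIs were found in 8.81%, 28.2% and 17.8% of exercise and 17.8%, 28.0% and 15.8% of sedentary tumour-like cells, and, unthinned, in 68.1%, 85.5% and 68.3% and in 75.9%, 81.0% and 66.9%. The groups overlapped in both. In macrophage and monocyte-like cells, at the same 3000 UMIs, 51.5%, 77.1% and 67.3% of exercise and 67.2%, 79.1% and 65.7% of sedentary cells reached 10.

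**Figure D4:**
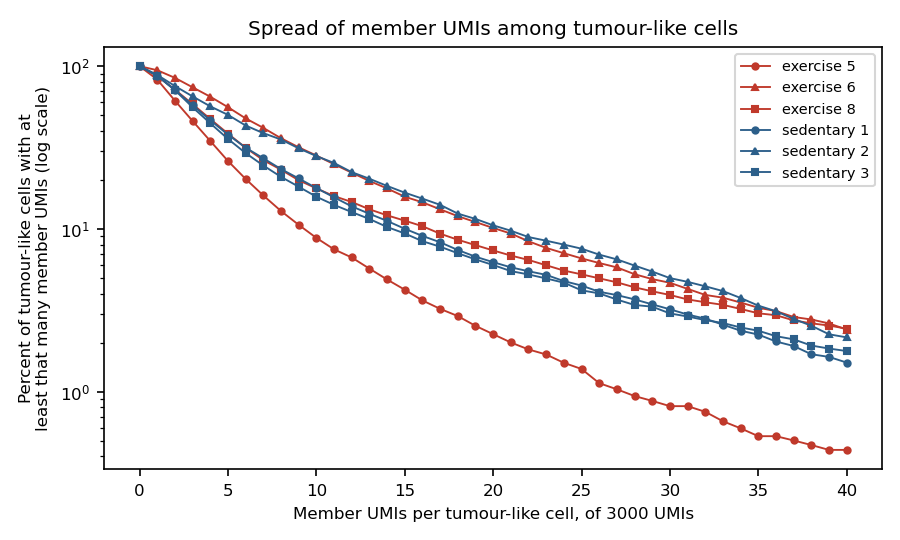
Percent of tumour-like cells (vertical axis, log scale) that hold at least a given number of member UMIs (horizontal axis) when each cell is thinned to 3000 UMIs, 1 line per library. Exercise 5 lies lowest over most of the axis and exercise 6 and sedentary 2 highest up to 20 UMIs, where 10.1% and 10.5% of their cells remain, against 2.26% in exercise 5.

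To ask whether the members were high in the same cells, tumour-like cells were ranked by the thinned UMIs of the 12 IFIT, oligoadenylate synthetase and Mx1 members, and all levels were then read from the UMIs of those cells that the thinning had set aside. Cells with 4 or more such UMIs made up 5.42%, 15.8% and 11.3% of exercise and 11.9%, 16.0% and 10.2% of sedentary tumour-like cells, and cells with 0 made up 69.2%, 48.6% and 61.9% and 58.1%, 53.2% and 64.0%. The other 26 members, not used to rank, were all higher in the upper cells than in the cells with 0, in 6 of 6 libraries, with a median ratio of 8.00 and a range of 2.48 for Isg20 to 94.4 for Rsad2. Isg15 had 710, 740 and 833 CPM in upper cells of exercise and 750, 802 and 790.5 CPM in those of sedentary libraries, against 36.9, 68.5 and 46.9 CPM and 43.1, 59.9 and 44.2 CPM in cells with 0. Usp18, the protease that removes Isg15 and blocks the receptor, stood at 85 to 197 CPM in upper cells and at 3.21 to 9.43 CPM in cells with 0 (median ratio 23.7). Bst2 was high in both, at 669 to 1145 CPM in upper cells and 215 to 421 CPM in cells with 0 (median ratio 3.29).

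Transcription factors and sensors were also higher in the upper cells. Irf7 had 79.9, 138 and 146 CPM in upper cells of exercise and 123.4, 132 and 107 CPM in those of sedentary libraries, against 4.78 to 17.98 CPM in cells with 0 (median ratio 11.9). The components of the signalling complex were less uneven, with median ratios of 5.58 for Stat2 and 3.07 for Irf9. Among sensors the ratios were 10.6 for Ifi204, 10.3 for Ifih1, 7.71 for Dhx58, 4.38 for Ddx58 and 4.26 for Zbp1. Parp14 and Parp9, ADP-ribose transferases of the response, had 8.49 and 5.12. Members with the GAAANNGAAA core in their window had a median ratio of 9.29 (n = 8), those without it 7.32 (n = 10) and those with no window 7.04 (n = 8), with ranges that overlapped.

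**Figure D5:**
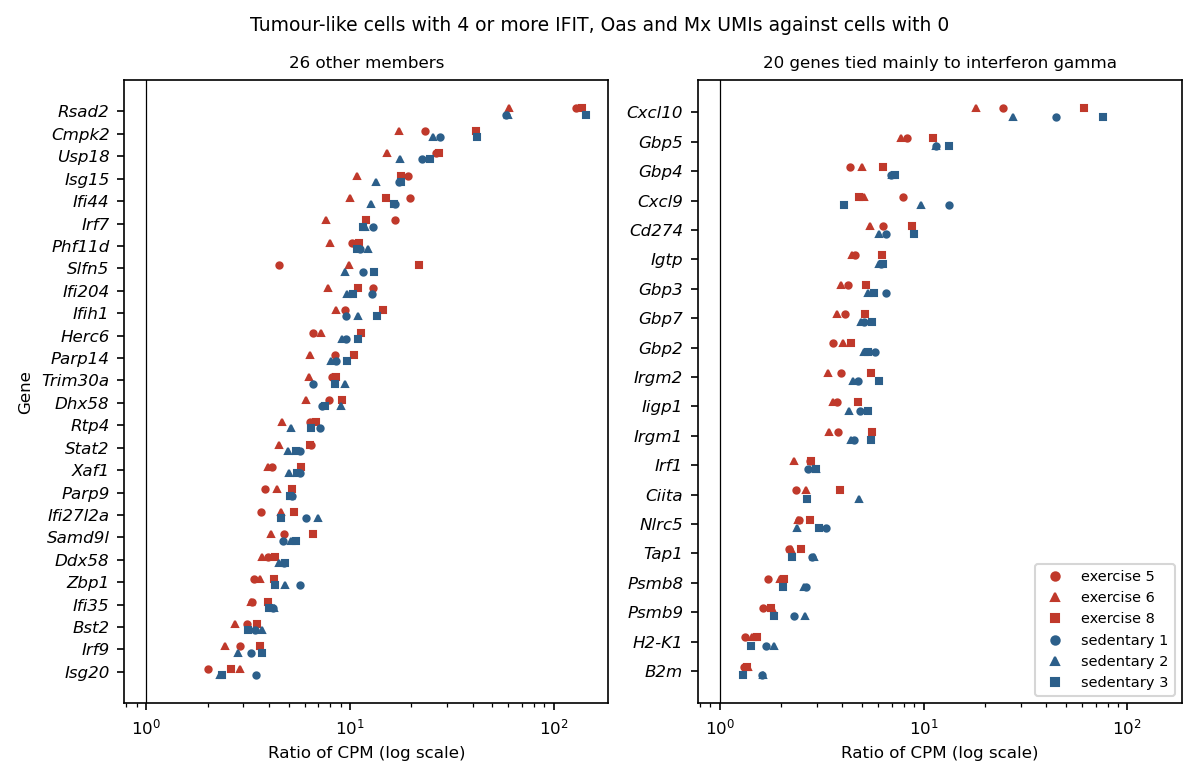
Ratio of CPM (horizontal axis, log scale) in tumour-like cells with 4 or more IFIT, Oas and Mx1 UMIs to that in cells with 0. There is 1 point per library, for 26 members not used to rank (left) and 20 genes listed as tied mainly to interferon gamma (right). All points of the 26 members lie above 1, and on the right Cxcl10 leads at a median of 36.0 while B2m is lowest at 1.37; 1 library in which Ciita was at 0 in upper cells is off the axis.

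Genes listed as tied mainly to interferon gamma were also higher in the same cells. The name of the list does not show which interferon acted, and this was not tested for these genes or the members. Of 20, 19 were above 1 in all 6 libraries, and the median ratio was 4.57. The chemokine Cxcl10 had a median ratio of 36.0, the guanylate-binding protein Gbp5 11.3, the checkpoint ligand Cd274 6.47 and the factor Irf1 2.79, while the antigen presentation genes H2-K1 and B2m had 1.48 and 1.37. The housekeeping gene Actb was somewhat lower in upper cells in all 6 libraries. It had 3919, 2963 and 3191 CPM in upper cells of exercise and 3451, 3869 and 3198 CPM in those of sedentary libraries. In cells with 0 it had 4090, 3168 and 3275 CPM and 3842, 4009 and 3344 CPM. Hprt, Ppia and Rpl13a were also lower in upper cells in all 6 libraries. Hprt had 73.7, 59.4 and 44.3 CPM in exercise and 49.2, 54.3 and 50.01 CPM in sedentary upper cells. In cells with 0 it had 88.7, 71.3 and 54.9 CPM and 68.4, 62.7 and 55.6 CPM. Eef1a1 and Tbp were higher in upper cells in some libraries and lower in others.

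The 14 macrophage and monocyte markers, which the gate limits, were low in both ranges. Summed they had 28.0, 19.2 and 27.3 CPM in upper cells of exercise and 28.4, 26.4 and 17.99 CPM in those of sedentary libraries, against 26.2, 17.9 and 24.3 CPM and 20.3, 19.9 and 18.8 CPM in cells with 0. The tumour markers Cspg4, Cdh2, Nes and Mitf, summed, were lower in upper cells. They had 152, 146 and 143 CPM in exercise and 114, 134 and 137 CPM in sedentary upper cells. In cells with 0 they had 180, 177 and 174 CPM and 156, 180 and 160 CPM. Median depth was lower too, at 13400.5 to 19994 UMIs in upper cells and 16149 to 27274 UMIs in cells with 0. The proliferation gene Mki67 had 106, 124 and 96.4 CPM in upper cells of exercise and 91.9, 105 and 76.6 CPM in those of sedentary libraries, against 135, 169 and 114 CPM and 167, 126 and 111 CPM in cells with 0, lower in 6 of 6 libraries. The part of depth and of tumour marker number in the spread was not tested.

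The summed member level was lower in tumour-like barcodes that showed more tumour markers, at 2706 ± 822 CPM with 0 markers, 2320 ± 672 CPM with 1, 1896 ± 483 CPM with 2 and 1577 ± 387 CPM with 3 or more (SD, n = 6), and depth was higher in the barcodes with more markers. Across single thinned tumour-like cells pairs of members went together to different degrees. Pearson's r between Ifit1 and Ifit3 was 0.656 in exercise 5, 0.693 in exercise 6 and 0.763 in exercise 8, over 3190, 5977 and 6235 cells. Between Isg15 and Bst2 it was 0.320, 0.372 and 0.419, and between Ifit3 and Actb it was -0.016, -0.036 and -0.031. The 3 sedentary libraries had 0.672 to 0.685 for the first pair, 0.350 to 0.428 for the second and -0.043 to -0.010 for the last. These describe cells that share a library, a depth and sparse counts, and carry no test.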

How the data were processed

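The authors deposited a matrix of UMI counts per gene and barcode for each of 6 libraries (10x 3′ chemistry), made with Cell Ranger 6.1.2 on mm10 per the submitters' processing notes, while the file headers give software version 3.1.0; how UMIs of shared sequence were assigned is not given in the sources used here. A barcode was dropped if it had fewer than 300 genes, fewer than 500 UMIs or a mitochondrial share above 20%. Classes were set by the number of distinct markers detected, with limits chosen after the marker distributions were seen; no member is a marker. Doublets were treated only by leaving out 934 barcodes with markers of several host classes, or of a host class and the tumour; no caller was run. UMIs were summed per library and class of at least 20 cells.

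Sums were tested with edgeR 4.0.16 (quasi-likelihood, TMM, filterByExpr, Benjamini-Hochberg over all genes tested) in R 4.3.3, exercise against sedentary over 3 libraries each, and classes with the library as a block. DESeq2 1.42.0, other filters, limits and gates, and leaving out each library were alternatives. The edgeR fits of exercise against sedentary were tested on simulated data. Of log2 changes of 1 they called 51% (whole tumour), 66% (tumour-like), 61% (macrophage and monocyte-like) and 63% (T-like). Of log2 changes of 2 they called 81%, 87%, 92% and 94%. Unchanged genes called were 7, 9, 10 and 13. The changed genes were drawn at random and simulated independently. These rates therefore do not describe smaller changes or members that vary together. Class scores are means of log2(CPM + 1). Cells were thinned to 3000 UMIs without replacement. UMIs mark 3′ ends and are not scaled by length, so levels of different genes were not ranked beyond the choice of the 8 highest members in tumour-like cells, which with the 2 smallest unadjusted p-values per direction and comparison are given in full. The members, lists and markers were chosen with earlier results of these data known. Python 3.11.15 was used.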

Additional observations from a re-analysis of the deposited data

Results flagged for a closer look

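Barcodes that fitted no class, 9137 in all, entered no class comparison and carried the members above the level of tumour-like cells. Their summed member level was 2256, 4112 and 3414 CPM in exercise and 3161, 4127 and 3336 CPM in sedentary libraries, a mean of 3401 ± 693 CPM (SD, n = 6), against 1960 ± 482 CPM in tumour-like cells. They were looked at again because they lie outside the classes compared; they include the 934 mixtures, and the part of cell types in their level was not tested. In 26 groups of libraries no library stood apart by Dixon's criterion, which chance meets in about 1 group of 20.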

How the results depend on the processing

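No paired analysis was possible because the groups share no replicate numbers. In the comparison of exercise with sedentary libraries, edgeR called 0 genes in each sum; DESeq2 called 22 (whole tumour), 38 (tumour-like), 2 (macrophage and monocyte-like) and 4 (T-like). With no filter on low counts edgeR called 2 (tumour-like), 1 (macrophage and monocyte-like) and 50 (T-like) genes, among them 1 member, Slfn5 in T-like cells, and with a stricter gate 1 in T-like cells. Leaving out 1 library gave 0 to 1 genes in tumour-like and T-like cells and 0 to 3 for the interaction. For macrophage and monocyte-like against tumour-like cells the members called lower were 3 with no filter, 0 with the stricter gate and 1 to 2 without 1 library; for neutrophil-like cells they were 1 to 3. A pseudocount of 10 gave score differences of 1.43 (macrophage and monocyte-like), 1.45 (neutrophil-like) and 0.34 (NK-like). The ratio of variance to mean among tumour-like cells was 24.5 at 5000 UMIs and 90.9 unthinned, since it grows with depth.

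Signs turned, for members not called, with no filter on low counts (a log2 fold change of -0.033 for Ifit3, macrophage and monocyte-like against tumour-like, and of -0.041 for Bst2, macrophage and monocyte-like against tumour-like) and with the stricter gate (Ifih1 0.070 in T-like, Mx1 -0.026 in neutrophil-like cells). Without 1 library the exercise effect ranged from -0.015 to 0.24 for Ifi35 and -0.056 to 0.37 for Oas1a (whole tumour), -0.087 to 0.63 for Ifi44 and -0.17 to 0.42 for Oas1g (macrophage and monocyte-like), and -0.19 to 0.41 for Ifit1 (T-like). The log2 fold change of a class against tumour-like cells, without 1 library, ranged from -0.15 to 0.0052 for Ifit1 (macrophage and monocyte-like). For T-like cells the range was -0.65 to 0.11 for Oas2 and -0.11 to 0.065 for Ifih1. For neutrophil-like cells the range was -1.56 to 0.12 for Oas1a and -0.67 to 0.35 for Oas1g. The cause was not tested. Of the values for single members under alternatives that keep all libraries, 521 kept direction and call, 7 lost a call and 4 gained one; without 1 library 707 kept both, 13 lost a call and 5 gained one. The members called higher in T-like than in tumour-like cells were 17 to 22 without 1 library, against 21. Neutrophil-like cells were few (687) and shallow.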
